A study of Ovis aries with 16 samples.

Results

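The genes described here are 10 regulators of mitochondrial number and shape in sheep: PPARGC1A, PPARGC1B, NRF1, TFAM, TFB2M, GABPA, MFN1, MFN2, OPA1 and DNM1L. They were taken by symbol from a gene-by-library table of 28524 rows, and all 10 were present. Each passed the filter on low values and was tested in every comparison below.

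Mitochondria carry a small genome of their own, but most of their proteins are encoded in the nucleus, so new mitochondria need both genomes to be transcribed together. The coactivators PGC-1alpha (PPARGC1A) and PGC-1beta (PPARGC1B) bind transcription factors such as NRF1 and GABPA, which switch on nuclear genes of the respiratory chain as well as TFAM and TFB2M, the factors that start transcription of mitochondrial DNA. The network of mitochondria is then shaped by fusion, through the outer membrane mitofusins MFN1 and MFN2 and the inner membrane protein OPA1, and by fission, through DRP1, the product of DNM1L. In liver PGC-1alpha is known as a fasting-induced activator of glucose production, and in muscle as an exercise-induced activator of oxidative metabolism.

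The libraries came from 8 offspring of Suffolk sheep, and each animal gave 1 liver sample (tip of the left lobe) and 1 sample of vastus lateralis, a thigh muscle. Bisphenol A (BPA), a plasticizer with oestrogen-like activity, was injected under the skin of 4 of the mothers at 0.5 mg/kg/day in corn oil on days 30 to 90 of gestation. Mothers of the 4 control (C) offspring received corn oil alone. All animals, controls included, were killed at about 21 months of age after a 48 h fast, in a follicular phase synchronized with prostaglandin F2α. The 16 libraries thus form 4 groups of 4: C and BPA in liver, and C and BPA in muscle. Control sheep bear the numbers 902, 908, 924 and 928, BPA sheep the numbers 910, 918, 977 and 984, and values are listed below in these orders. RNA of whole tissue was depleted of ribosomal RNA and sequenced; in such bulk samples fewer cells of a type and less RNA per cell cannot be told apart.

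Read totals recovered from the table were 4.39 to 19.28 M (megareads) in the liver libraries and 15.15 to 28.54 M in muscle. Several livers stood apart from the rest. Control liver 902 had 4.39 M reads, a median deviation of -3.32 (log2) from the liver mean over 11 hepatocyte markers and of 4.23 over 10 fibroblast and stellate cell markers. The other 3 control livers lay between 1.39 and 1.61 for the hepatocyte markers and BPA liver 910 just below them at 1.34, whereas BPA livers 918, 977 and 984 lay at -0.42, -0.81 and -0.95. Those 3 BPA livers also had 4.66, 7.27 and 10.64 M reads, against 17.92 M in 910. All 11 hepatocyte markers were higher in liver than in muscle, and all 10 muscle fibre markers were higher in muscle than in liver, each past the test threshold given below. Liver differences are therefore also given below without single libraries where these moved them.

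Values are the deposited normalized read counts, which are read counts divided by 1 factor per library. They can be compared between libraries for 1 gene, but not between genes, since gene length was not divided out. Differences were tested with limma on log2(normalized count + 1), and p-values were adjusted by the Benjamini-Hochberg method over all genes tested; a gene was called at an adjusted p under 0.05. The scatter of the members between libraries differed by tissue: the coefficient of variation over 8 libraries ran from 23.0% to 82.5% in liver (median 38.4%) and from 8.1% to 16.2% in muscle (median 11.4%). The fewest reads behind any of these values were 56 in liver (TFB2M in 902), which gives a counting error of 13.4%, and 177 in muscle, a counting error of 7.5%. Such errors cover counting only.

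PPARGC1A, the coactivator that heads the biogenesis pathway, had its highest values in BPA livers. Its normalized counts were 268, 590, 553 and 638 in the control livers and 414, 1666, 1213 and 916 in the BPA livers. Livers 918, 977 and 984 lay above every control, while 910 lay below 3 of the 4 controls, so the groups overlapped. In muscle the counts were 436, 392, 570 and 646 in controls and 538, 579, 585 and 502 in BPA animals, and the BPA range lay inside the control range. The group means were 1052 ± 525 in BPA liver, 551 ± 39.0 in BPA muscle, 512 ± 167 in control liver and 511 ± 118 in control muscle (SD, n = 4). No neighbours in that order were separated beyond their spread.

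Its relative PPARGC1B, a coactivator of many of the same respiratory genes, was set apart by tissue instead. Control livers held 170, 181, 105 and 59.7 normalized counts and BPA livers 156, 171, 201 and 197. The BPA livers were close to each other, and the low values of the control group came from 924 and 928. In muscle PPARGC1B reached 1824, 1203, 1413 and 1335 in controls and 1226, 1803, 1415 and 1499 in BPA animals. Every muscle library was above every liver library, at means of 1486 ± 241 (BPA) and 1444 ± 268 (C) against 181 ± 21.6 and 129 ± 56.9 in liver (SD, n = 4).

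NRF1, a factor that binds promoters of respiratory chain and TFAM genes, counted 343, 246, 267 and 216 in control livers and 253, 589, 403 and 480 in BPA livers. As for PPARGC1A, 918, 977 and 984 exceeded all controls and 910 did not. Muscle values were narrow, at 268, 356, 345 and 294 in controls and 281, 285, 305 and 277 in BPA animals. Ordered by mean, BPA liver (431 ± 141) was followed by control muscle (316 ± 41.9), BPA muscle (287 ± 12.2) and control liver (268 ± 54.2; SD, n = 4), with overlapping ranges between neighbours.

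GABPA, the DNA-binding subunit of the other factor of this tier, counted 415, 216, 264 and 215 in control livers and 251, 670, 233 and 238 in BPA livers. A single library in each group was high, 902 among the controls and 918 among the BPA livers. Muscle counts were 303, 344, 287 and 313 in controls and 326, 305, 278 and 271 in BPA animals. The means of 348 ± 215 in BPA liver, 312 ± 23.8 in control muscle, 295 ± 25.7 in BPA muscle and 277 ± 94.3 in control liver (SD, n = 4) differed by less than the spread between libraries.

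TFAM, which packages mitochondrial DNA and activates its promoters, split the BPA livers. Counts were 192, 321, 334 and 335 in control livers and 345, 446, 135 and 149 in BPA livers. BPA liver 918 lay above all 4 controls and 910 only narrowly so (345 against 335 in 928), whereas 977 and 984 lay below all of them. In muscle the values were 335, 345, 350 and 373 in controls and 347, 454, 352 and 330 in BPA animals, among which only 918 departed from the rest. By mean the order was BPA muscle (371 ± 56.1), control muscle (351 ± 16.1), control liver (296 ± 69.2) and BPA liver (269 ± 152; SD, n = 4), and every neighbouring pair overlapped.

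TFB2M, the partner of the mitochondrial RNA polymerase at promoter opening, counted 106, 147, 119 and 143 in control livers and 132, 260, 190 and 116 in BPA livers. Livers 918 and 977 exceeded the controls, and 910 and 984 lay among them. Muscle libraries held 360, 319, 361 and 283 in controls and 267, 386, 284 and 308 in BPA animals, all above the highest liver. The group means were 331 ± 37.6 (C) and 311 ± 52.6 (BPA) in muscle and 175 ± 65.3 (BPA) and 129 ± 19.5 (C) in liver (SD, n = 4).

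MFN1, the mitofusin with the stronger tethering activity, had 405, 623, 705 and 670 normalized counts in control livers and 622, 3079, 1175 and 1062 in BPA livers. Liver 918 held more than any muscle library, and 977 and 984 also exceeded all control livers, while 910 lay within the control range. Muscle values were 1282, 1041, 1142 and 1256 in controls and 1047, 1342, 1194 and 1107 in BPA animals. The means were 1485 ± 1090 in BPA liver, 1180 ± 111 in control muscle, 1173 ± 128 in BPA muscle and 601 ± 135 in control liver (SD, n = 4); of these neighbours, control liver lay apart from BPA muscle, with no overlap.

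MFN2, the mitofusin that also tethers mitochondria to the endoplasmic reticulum, did not share the liver pattern of MFN1. Control livers held 778, 1545, 1447 and 1496 and BPA livers 1354, 899, 1169 and 1136. With the exception of 902, the control livers exceeded all BPA livers, and 918, the highest library for MFN1, was the lowest BPA liver for MFN2. Muscle counts were 9845, 9382, 8557 and 8801 in controls and 6981, 9609, 7805 and 8357 in BPA animals, and 3 of the 4 BPA muscles lay below every control. Means were 9146 ± 580 (C) and 8188 ± 1103 (BPA) in muscle and 1317 ± 361 (C) and 1140 ± 187 (BPA) in liver (SD, n = 4).

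OPA1, which fuses inner membranes and keeps cristae closed, counted 401, 359, 360 and 360 in control livers and 387, 1253, 525 and 553 in BPA livers. The controls were tight, 910 lay among them, and 918, 977 and 984 lay above. In muscle the counts were 845, 721, 699 and 706 in controls and 593, 793, 758 and 617 in BPA animals. Control muscle (743 ± 68.7), BPA muscle (690 ± 99.9), BPA liver (680 ± 389) and control liver (370 ± 20.7; SD, n = 4) followed each other by mean, with overlap between each neighbouring pair.

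DNM1L, the only fission gene among the members, encodes the GTPase that constricts the outer membrane. Control livers held 303, 314, 289 and 348 and BPA livers 303, 583, 223 and 244, so that 918 was above and 977 and 984 were below all controls. Muscle values were 337, 253, 261 and 267 in controls and 254, 343, 248 and 261 in BPA animals. The 4 means lay between 277 ± 44.6 (BPA muscle) and 338 ± 167 (BPA liver), with control muscle at 279 ± 39.0 and control liver at 314 ± 25.1 (SD, n = 4), and no groups were separated beyond their spread.

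**Figure D1:**
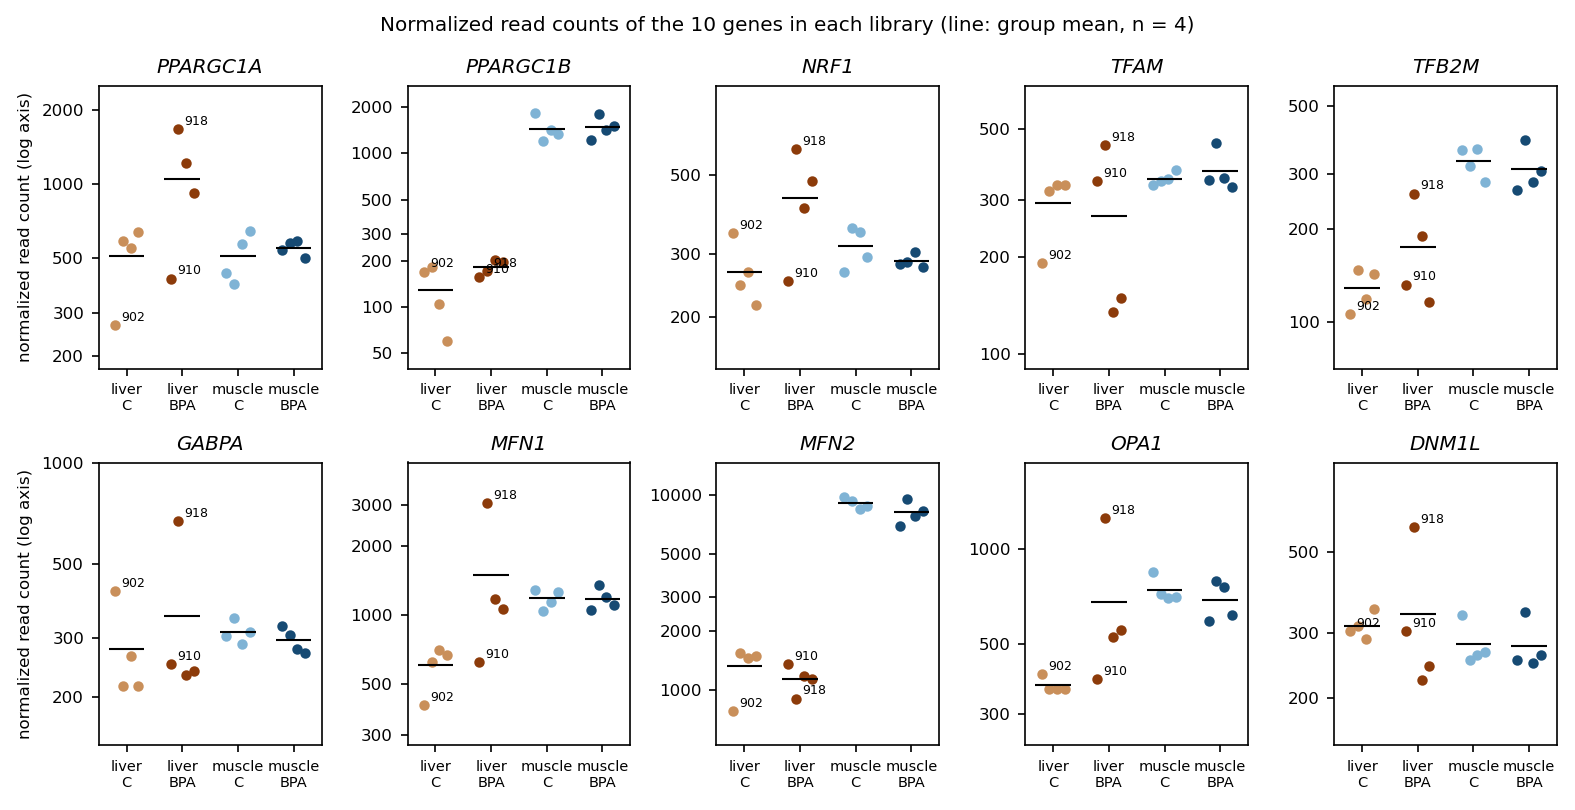
Normalized read counts (y axis, logarithmic) of each member in the 4 groups of 4 libraries (x axis); each point is 1 library, the line is the group mean, and livers 902, 910 and 918 are numbered. PPARGC1B, TFB2M and MFN2 separate the tissues completely, and liver 918 is the highest liver for PPARGC1A, NRF1, TFAM, TFB2M, GABPA, MFN1, OPA1 and DNM1L.

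Liver against muscle was the comparison in which members passed the test. PPARGC1B, TFB2M, MFN2 and OPA1 were lower in liver than in muscle, 4 of 10 members, and none was higher in liver at the threshold. In the same fit of 16 libraries 71.4% of 15995 genes were called, 36.1% higher in liver and 35.3% higher in muscle, so the members' share of calls was below that of all genes. The members' median difference, liver minus muscle, was -0.46 on the log2 scale, against 0.059 for all genes. Fitting the recovered read counts with edgeR moved the median of all genes to 0.205, and the members' median was then -0.30.

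The largest differences belonged to PPARGC1B and MFN2. PPARGC1B differed by -3.30 (log2, SE 0.201, limma adjusted p = 3.63e-10), and its level was lower in the liver than in the muscle of all 8 animals, with differences from -4.46 to -2.73. MFN2 differed by -2.85 (SE 0.160, adjusted p = 1.28e-10), again in 8 of 8 animals. TFB2M differed by -1.13 (SE 0.168, adjusted p = 1.73e-05), with muscle higher in all 8 animals. OPA1 differed by -0.58 (SE 0.189, adjusted p = 0.0121) and was higher in muscle in 7 animals, the exception being 918. By animal, OPA1 differed by -1.07, -1.0, -0.95 and -0.97 in controls and by -0.61, 0.66, -0.53 and -0.16 in BPA animals. PPARGC1A itself, in contrast with PPARGC1B, was not called: the difference was 0.36 (SE 0.254, 95% interval -0.178 to 0.900, adjusted p = 0.213), with 4 animals higher in liver and 4 higher in muscle. Those higher in liver were BPA animals 918, 977 and 984 (1.52, 1.05 and 0.87) and control 908 (0.59). Controls 924 and 928 were nearly equal, at -0.04 and -0.02, and 902 and 910 stood at -0.7 and -0.38.

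Among the remaining members TFAM was higher in muscle in all 8 animals, at a difference of -0.46 (SE 0.230) that missed the threshold (limma adjusted p = 0.0846). The tissues were close in several of these animals, at -0.1 in 908, -0.07 in 924, -0.03 in 918 and nearly equal in 910. MFN1 was higher in muscle in 7 animals, with 918 the exception, at -0.46 (adjusted p = 0.107). That value averages both groups. By animal, MFN1 differed by -1.66, -0.74, -0.69 and -0.91 in controls and by -0.75, 1.2, -0.02 and -0.06 in BPA animals. NRF1 (0.14), GABPA (-0.07) and DNM1L (0.18) had adjusted p-values of 0.465, 0.773 and 0.369. Leaving out liver 910 brought PPARGC1A to 0.56 (adjusted p = 0.0184) and TFAM to -0.55 (adjusted p = 0.0396), in a fit that called 74.6% of all genes. Without liver 918, TFAM was at -0.61 (adjusted p = 0.0120) and MFN1 at -0.67 (adjusted p = 0.00154), where 72% of all genes were called. The first 4 calls held without any 1 library and with the animal as a block.

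**Figure D2:**
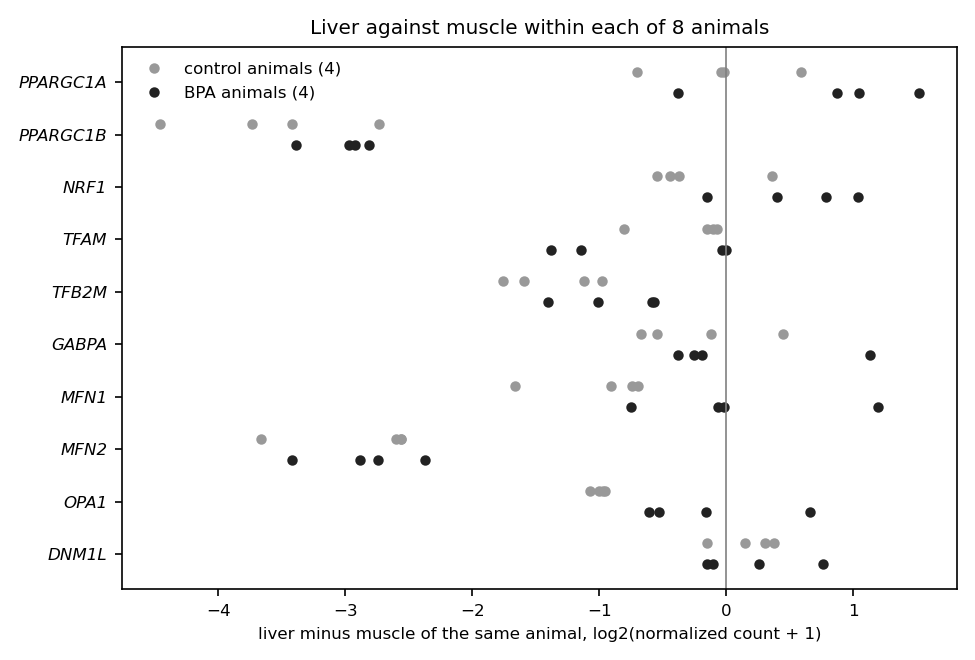
Liver minus muscle of the same animal, on the log2(normalized count + 1) scale (x axis), for each member (y axis); each point is 1 of 8 animals, grey for controls and black for BPA. All 8 points of PPARGC1B, TFB2M and MFN2 lie left of 0, whereas PPARGC1A and NRF1 have 4 animals on each side.

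The tissues also differed in how related members stood to each other within a library. The ratio of MFN2 to MFN1 normalized counts ranged from 7.01 to 9.01 in control muscle and from 6.53 to 7.55 in BPA muscle. It was 1.92 to 2.48 in control livers. Among BPA livers 910 gave 2.18, within that range, while 977 gave 0.995, 984 gave 1.07 and 918 gave 0.292. The ratio of OPA1 to DNM1L, inner membrane fusion to fission, showed the same division of livers: 1.03 to 1.32 in controls, 1.28 in 910, and 2.15, 2.35 and 2.27 in 918, 977 and 984. In muscle that ratio ran from 2.31 to 3.05 over both groups. PPARGC1B to PPARGC1A, by contrast, did not set the BPA livers apart, with 0.103 to 0.376 against 0.0936 to 0.634 in control livers, and 2.07 to 4.18 in muscle. Since gene length was not divided out, only the change of a ratio between libraries can be read, not its size.

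**Figure D3:**
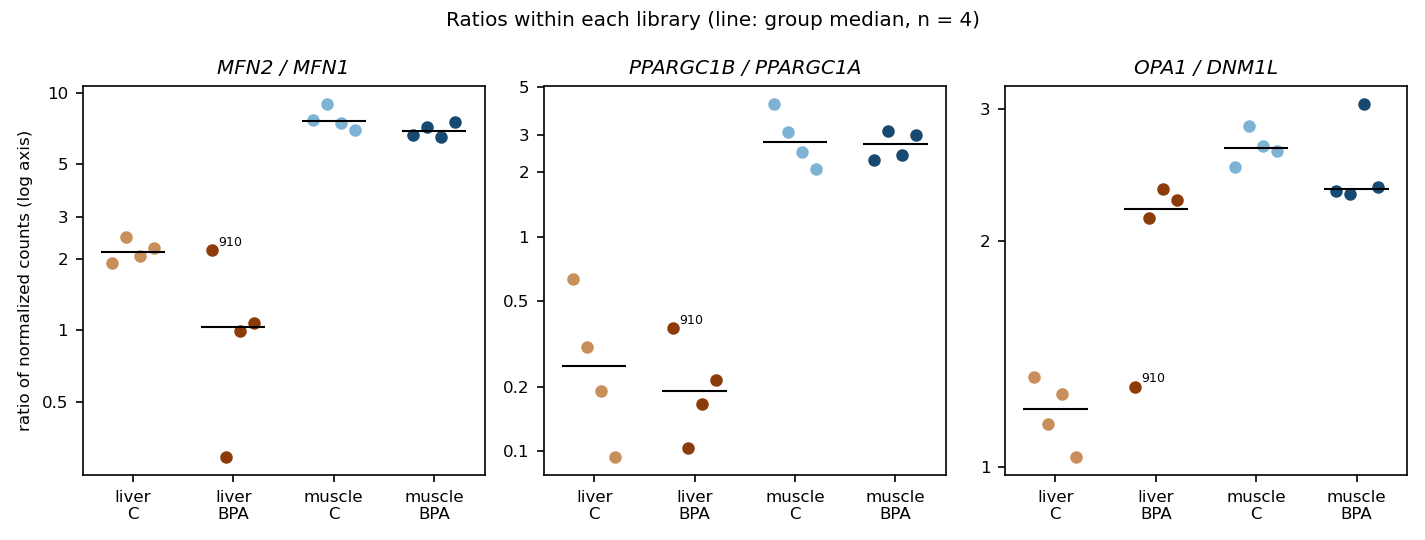
Ratios of normalized counts of paired members within each library (y axis, logarithmic) in the 4 groups (x axis); points are libraries, lines are group medians (n = 4), and BPA liver 910 is numbered. For MFN2 to MFN1 and for OPA1 to DNM1L, BPA liver 910 lies with the controls and the other 3 BPA livers do not.

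The question of prenatal BPA in liver was addressed with 4 BPA and 4 control livers. No member passed the threshold, and neither did any of the 15689 genes tested (0% called). By size, 8 members had higher and 2 had lower means on the log2 scale in BPA livers, with a median difference of 0.49 against -0.014 for all genes, of which 49.3% were higher. The members' groups overlapped in every case, whereas the groups did not overlap for 7.61% of all genes. At an unadjusted p under 0.05 there was 1 member, MFN1, against 18.1% of all genes. DESeq2 called 196 genes and no member, and edgeR called 0.

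MFN1 had the largest difference between BPA and control livers, 1.08 (log2, SE 0.463, unadjusted p = 0.0423, limma adjusted p = 0.270), a 2.11-fold higher level. PPARGC1A followed at 0.94 (SE 0.463, 1.92-fold, adjusted p = 0.299). OPA1 stood at 0.73 (SE 0.361, 1.65-fold, adjusted p = 0.302), NRF1 at 0.64 (SE 0.319, 1.56-fold, adjusted p = 0.304) and PPARGC1B at 0.61 (SE 0.374, 1.52-fold, adjusted p = 0.376). The PPARGC1B value was 0.28 without control liver 928. The 95% interval for PPARGC1A ran from -0.091 to 1.98, which covers differences of either sign. TFB2M (0.38), GABPA (0.22), MFN2 (-0.17) and TFAM (-0.29) had adjusted p-values from 0.512 to 0.779. These 4 values also moved with single libraries. Without liver 918 TFB2M stood at 0.16, GABPA at -0.15, MFN2 at -0.06 and TFAM at -0.59. Without 902 GABPA stood at 0.43, MFN2 at -0.41 and TFAM at -0.48, and without 977 TFAM stood at -0.02. Over all single omissions in liver, TFAM ran from -0.594 to -0.0217, MFN2 from -0.407 to -0.0628, TFB2M from 0.162 to 0.548 and GABPA from -0.150 to 0.430. DNM1L differed by 0.00134, with an interval from -0.740 to 0.743, so differences of either sign within that range were not excluded.

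**Figure D4:**
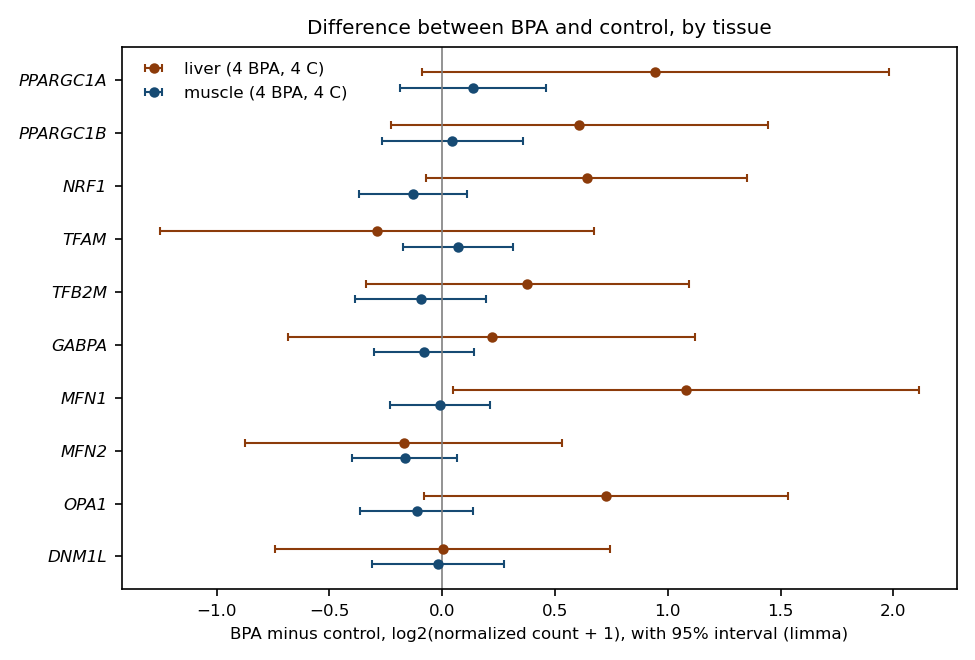
Difference between BPA and control animals on the log2(normalized count + 1) scale (x axis) for each member (y axis), in liver (brown) and muscle (blue); points are limma estimates and bars their 95% intervals (4 BPA and 4 control libraries each). Only the liver interval of MFN1 lies off 0, from 0.046 to 2.11, and it did not pass adjustment over all genes; muscle intervals are narrower than liver intervals for all 10 members.

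The liver results rested on few libraries. For PPARGC1A, NRF1, MFN1 and OPA1, 3 of 4 BPA livers (918, 977 and 984) were above every control, and 910 was the exception. Without 910 the PPARGC1A difference was 1.34 (SE 0.373) and passed the threshold (limma adjusted p = 0.0451), while 16.5% of all genes were called. Without both 902 and 910, PPARGC1A (1.05, adjusted p = 0.0113), NRF1 (0.999, adjusted p = 0.00846), MFN1 (1.23, adjusted p = 0.0342) and OPA1 (0.99, adjusted p = 0.0455) passed, in a fit that called 43.1% of all genes, a share close to the 4 of 10 members. The control livers left in that fit had 17.93 to 19.28 M reads and the BPA livers 4.66 to 10.64 M. BPA and read depth could therefore not be told apart there. In a fit of all 16 libraries, where liver borrows the smaller spread of muscle, MFN1 passed (adjusted p = 0.0480) beside 14.7% of all genes. Without 918, the differences were smaller, at 0.64 for MFN1, 0.67 for PPARGC1A, 0.47 for NRF1 and 0.38 for OPA1, and 6 members were higher and 4 lower. Without 902 alone PPARGC1A stood at 0.66 (adjusted p = 0.310).

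Other measures moved with these libraries. The members' median deviation from the liver mean was 0.86 in 918, 0.21 in 977 and 0.07 in 984, and -0.17 in 910; the 4 control livers lay between -0.34 and -0.10. Messages of 72 cytosolic ribosomal proteins had a median deviation of -1.46, -1.67 and -2.05 in 918, 977 and 984, of 1.24 in 910 and of 1.27 to 1.41 in controls 908, 924 and 928, with 902 at 0.00. The summed level of 11 hepatocyte markers ranged from 262478 to 1174298 in BPA livers and from 50520 to 1404602 in controls, and 10 of 11 had lower means in BPA livers (median -0.47). Without 902 all 11 were lower (median -1.78), and with the depth class of each library in the model all 11 were higher (median 1.15). Without 928, 6 were lower and 5 higher (median -0.06), and without 924, 7 were lower and 4 higher (median -0.07). All 8 macrophage markers tested had lower means in BPA livers, with sums of 1578 to 6468 against 7120 to 13494, and so had 10 of 10 fibroblast and stellate markers (sums of 2681 to 5686 against 6060 to 120540). With the depth class of each library (under or at least 15 M reads) in the model, MFN1 stood at 0.93, PPARGC1A at 0.84, OPA1 at 0.47 and NRF1 at 0.28, none past the threshold. In that model 902 was the only control liver under 15 M reads, and 910 was the only BPA liver above. All depth class values given here and below therefore rest strongly on livers 902 and 910. The part of the marker genes and of the ribosomal protein messages in the result was not tested.

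**Figure D5:**
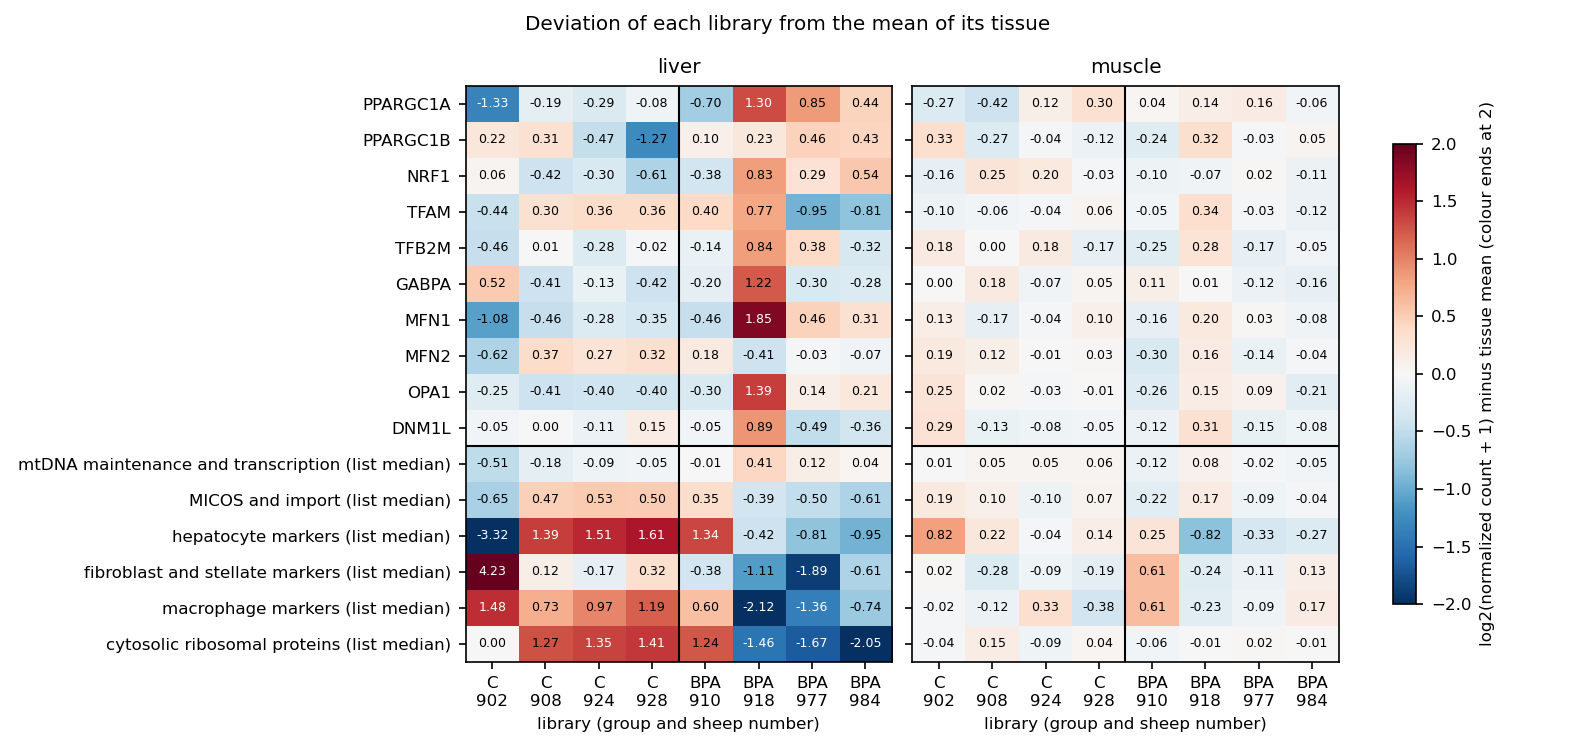
Deviation of every library (x axis, group and sheep number) from the mean of its tissue, on the log2(normalized count + 1) scale, for the 10 members and for the medians of 6 gene lists (y axis); red is above and blue below the tissue mean, with colours ending at 2 in either direction. In liver, 918 is above the mean for 9 of 10 members and BPA livers 918, 977 and 984 are negative for ribosomal proteins, whereas member deviations in muscle stay between -0.42 and 0.34.

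In muscle the members differed little between BPA and control animals. Only 3 were higher and 7 lower in BPA muscle, with a median difference of -0.05 (all genes, -0.002), and none was called, against 0.129% of 14706 genes (19 genes, 2 higher and 17 lower). The groups overlapped for each member, while they did not overlap for 4.53% of all genes. MFN2 had the smallest adjusted p, at a difference of -0.17 (log2, SE 0.107, 95% interval -0.402 to 0.067, limma adjusted p = 0.764). PPARGC1A differed by 0.14 (SE 0.147, interval -0.188 to 0.458, adjusted p = 0.859) and PPARGC1B by 0.05 (SE 0.142, adjusted p = 0.957). NRF1 stood at -0.13, OPA1 at -0.11, TFB2M at -0.10 and GABPA at -0.08. TFAM (0.07), MFN1 (-0.01) and DNM1L (-0.02) were nearest to 0. Summed muscle fibre markers were 3062771 to 3631497 in BPA animals and 3342315 to 4143852 in controls, and slow fibre markers 110459 to 192440 against 119000 to 177083. For markers of other cells the direction varied by list, and none was called. Higher means in BPA muscle were found for 7 of 8 macrophage markers (median 0.20) and 6 of 9 endothelial markers (0.13). They were also found for 4 of 6 adipocyte markers (0.06) and 1 of 3 cholangiocyte markers (-0.10). Of 10 fibroblast markers, 10 had higher means in BPA muscle (median 0.19; sums of 14168 to 20613 against 12473 to 16412), and 7 of 10 without muscle 910 (median 0.09). All 11 hepatocyte markers had lower means (median -0.55; sums of 4263 to 9521 against 8128 to 13621), 6 of them at an unadjusted p under 0.05, against 7.77% of all genes, and none was called. Without muscle 918 the hepatocyte median was -0.36, with 9 of 11 lower. Their part in the muscle values was not tested.

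Whether the BPA difference itself differed between the tissues was tested as an interaction. No member and none of 13677 genes passed (0% called). The liver difference minus the muscle difference, with sign, was positive for 8 members. Its median over the members was 0.52, against -0.047 for all genes. MFN1 (1.09, SE 0.490, unadjusted p = 0.0412, limma adjusted p = 0.242), OPA1 (0.84, unadjusted p = 0.0414, adjusted p = 0.243) and NRF1 (0.77, unadjusted p = 0.0316, adjusted p = 0.234) were the 3 members under an unadjusted p of 0.05, which 19.5% of all genes also passed. PPARGC1A stood at 0.81 (SE 0.508, adjusted p = 0.362). Without liver 910, PPARGC1A (1.20, adjusted p = 0.0360), NRF1 (1.0, adjusted p = 0.0105), MFN1 (1.42, adjusted p = 0.0215) and OPA1 (1.06, adjusted p = 0.0312) passed, as did 25.9% of all genes. The BPA livers left in that fit had 4.66, 7.27 and 10.64 M reads. Control livers 908, 924 and 928 had 18.55, 17.93 and 19.28 M, and 902 had 4.39 M. The part of read depth was not tested. Without liver 918 no member passed, and the members' median was 0.38, with 7 positive and 3 negative. Without liver 928 the median was also 0.38, again with no member called. DESeq2 called 148 genes and no member, and edgeR called 0 genes.

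Pairs of members ranged from opposed to closely correlated between libraries in both tissues. Over 45 pairs, Pearson's r of the deviations from group means (8 libraries) had a median of 0.37 in liver (-0.78 to 0.89), with 32 pairs positive and 9 over 0.7. In muscle the median was 0.38 (-0.59 to 0.9), with 27 positive and 12 over 0.7. The same figures for pairs of all genes were not computed. In liver, points of 1 library share its depth and cell content, and 918 is high for most members. The genes whose deviations most resembled those of PPARGC1A in liver were LRRC58 (r = 0.988), VWA8 (0.984), LOC105602729 (0.976), RPS6KA6 (0.975) and ZNF239 (0.970). In muscle they were HAUS3 (0.991), ZFYVE9 (0.973), LOC114116603 (0.966), ZMYM4 (0.959) and ATXN1 (0.944), none of which was among the liver genes. These r values are the highest among all genes tested in a tissue, over 8 libraries and describe those libraries.

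Partners and regulators of the members were examined as lists. Their calls between tissues are to be read against the 71.4% of all genes called there, 36.1% higher in liver and 35.3% higher in muscle. Of 19 further genes of the biogenesis transcription network, 14 were called between tissues, 11 higher in muscle and 3 in liver. PERM1, a muscle regulator of the PGC-1 pathway, counted 7.97 ± 3.53 in liver and 7298 ± 888 in muscle (SD, n = 8; liver minus muscle -9.75 on the log2 scale, limma adjusted p = 1.04e-15). ESRRA, the orphan nuclear receptor that PGC-1alpha coactivates, was higher in muscle (2478 ± 435 against 1122 ± 437, adjusted p = 0.00122), and PPARA, the fatty acid sensing receptor, was higher in liver (4251 ± 1367 against 1389 ± 219, adjusted p = 2.7e-05). In BPA livers 11 of the 16 tested were higher and 5 lower, with a median of 0.18, which was 0.04 without 902, 0.10 without 977 and 0.31 without 910. In BPA muscle 6 were higher and 13 lower; none was called. The smallest p in liver belonged to PRKAA2, a catalytic subunit of AMP-activated kinase, at 848 ± 378 against 336 ± 95.5 in controls (1.27, SE 0.39, adjusted p = 0.256). In muscle it belonged to NRIP1, a corepressor that opposes PGC-1alpha (-0.41, SE 0.11, adjusted p = 0.277). Its groups, at 1119 ± 37.2 against 1501 ± 248 (SD, n = 4), did not overlap, as for 4.53% of all genes in muscle. Next came GABPB1, the partner subunit of GABPA, in liver (0.66, adjusted p = 0.363) and ESRRG, an orphan receptor of oxidative muscle, in muscle (-0.34, adjusted p = 0.630).

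Genes that replicate, transcribe and maintain mitochondrial DNA, beside TFAM and TFB2M, numbered 20 tested. Between tissues 6 were higher in liver and 9 higher in muscle at the threshold, where 36.1% and 35.3% of all genes were. POLRMT, the mitochondrial RNA polymerase with which TFB2M acts, was higher in liver (1215 ± 585 against 478 ± 40.6, n = 8, limma adjusted p = 3.09e-05), the reverse of TFB2M. LRPPRC, which stabilizes mitochondrial messages, was higher in muscle (1595 ± 165 against 741 ± 251, adjusted p = 4.08e-05). In BPA livers 15 of 20 were higher, with a median of 0.37 (0.21 without 918) and no call, and TWNK, the mitochondrial helicase, stood at 504 ± 169 against 266 ± 40.1 (SD, n = 4; 0.86, SE 0.32, adjusted p = 0.256). PRIMPOL, a primase and polymerase, stood at 933 ± 997 against 226 ± 74.9 (adjusted p = 0.265), a mean with a spread larger than itself. In BPA muscle 7 were higher and 13 lower, again without a call. The smallest p-values there belonged to SLIRP, the partner of LRPPRC (-0.28, adjusted p = 0.678), and RNASEH1, which removes RNA from DNA hybrids (-0.16, adjusted p = 0.732). Messages encoded by mitochondrial DNA itself were not analysed here.

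Fusion and inner membrane processing genes, such as the proteases and prohibitins that act on OPA1, numbered 12 tested, of which 9 were called higher in muscle and 1 in liver, against 35.3% and 36.1% of all genes. AFG3L2, a subunit of the m-AAA protease, counted 2431 ± 328 in muscle and 711 ± 190 in liver (n = 8, limma adjusted p = 3.35e-08). MIGA2, a mitochondrial fusion promoter of the outer membrane, was the gene higher in liver (1331 ± 526 against 550 ± 93.7, adjusted p = 3.18e-05). Of 13 fission genes tested, 8 were higher in muscle and 2 in liver, against the same shares of all genes. GDAP1 counted 420 ± 89.1 in muscle and 6.01 ± 5.27 in liver (adjusted p = 8.38e-10), and MTFR1 counted 462 ± 147 in liver and 159 ± 29.6 in muscle (adjusted p = 1.43e-06). BPA livers had 5 fusion genes higher and 7 lower (median -0.30) and 4 fission genes higher and 8 lower (median -0.41). With depth class in the model these were 7 and 5 (median 0.09) and 6 and 6 (median -0.03), and without 977 the fusion median was -0.19. In BPA muscle the counts were 2 higher and 10 lower, and 4 higher and 8 lower. None was called. In liver the smallest p-values belonged to HIGD1A (-1.56, adjusted p = 0.256) and the prohibitin PHB (-1.37, adjusted p = 0.276) among fusion and processing genes, and to FIS1 (-0.82, adjusted p = 0.327) and MTFR1 (-0.57, adjusted p = 0.340) among fission genes. In muscle FIS1, an outer membrane adaptor of fission, had groups that did not overlap (1526 ± 117 against 1858 ± 102, SD, n = 4, adjusted p = 0.343), and neither did those of INF2, an actin-assembling formin (738 ± 26.3 against 617 ± 92.4, adjusted p = 0.588). Groups did not overlap for 4.53% of all genes in muscle. HIGD1A (0.46, adjusted p = 0.680) and PHB (-0.19, adjusted p = 0.713) were the fusion and processing genes with the smallest p-values in muscle.

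The mitophagy and transport list, the genes that clear or move mitochondria, was higher in muscle for 11 and in liver for 2 of 14 genes, where 35.3% and 36.1% of all genes were. PINK1, the kinase that marks damaged mitochondria, counted 4834 ± 522 in muscle and 878 ± 288 in liver (n = 8, limma adjusted p = 3.53e-09). BNIP3, a hypoxia-induced mitophagy receptor, counted 6725 ± 869 and 506 ± 179 (adjusted p = 6.31e-12), while its relative BNIP3L was higher in liver (615 ± 249 against 209 ± 22.0, adjusted p = 8.64e-06). In BPA livers 7 were higher and 7 lower (median -0.15, and -0.04 without 908). BNIP3 stood there at 370 ± 154 against 643 ± 31.7 in control livers (SD, n = 4), a difference of -0.89 (SE 0.32, adjusted p = 0.256). Its groups did not overlap, as for 7.61% of all genes in liver. SQSTM1, an autophagy adaptor, followed at -0.78 (adjusted p = 0.364). In BPA muscle 4 were higher and 10 lower, and the smallest p-values were those of the adaptor OPTN (-0.26, adjusted p = 0.610) and the receptor BCL2L13 (-0.23, adjusted p = 0.687). None was called in either tissue.

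Of the genes for cristae organization (MICOS) and protein import, all 17 tested had lower means in BPA livers than in controls, with a median of -0.56, opposite in sign to the members, but none was called. Without 908, 924, 977 or 984, 15 of the 17 were lower. Over single omissions the median ran from -0.80 (without 902) to -0.42 (without 908). MICOS10, a core subunit at crista junctions, counted 119 ± 49.3 against 258 ± 38.1 (-1.18, SE 0.32, limma adjusted p = 0.256), without overlap, as for 7.61% of all genes in liver. TOMM20, a receptor of the import channel, counted 137 ± 95.6 against 257 ± 47.4 (SD, n = 4 for both genes, adjusted p = 0.258). With depth class in the model 7 of the 17 were higher and 10 lower, at a median of -0.09. In BPA muscle 4 were higher and 13 lower, with TIMM17A (-0.24, adjusted p = 0.726) and CHCHD6 (0.40, adjusted p = 0.734) at the smallest p-values. Between tissues 13 were higher in muscle and 1 in liver, against 35.3% and 36.1% of all genes.

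Targets of the members were examined last. Of 11 nuclear genes listed as NRF1 or GABPA targets, 4 were matched by symbol. Among these, COX5A, SDHB and VDAC1 were higher in muscle and ALAS1 was higher in liver (limma adjusted p = 1.59e-07, 2.55e-06, 3.19e-08 and 0.000548). COX5A, a subunit of cytochrome c oxidase, counted 249 ± 244 in BPA livers against 603 ± 285 in controls (-1.49, SE 0.62, limma adjusted p = 0.266), and SDHB, a subunit of succinate dehydrogenase, counted 868 ± 612 against 1706 ± 857 (SD, n = 4, adjusted p = 0.396), and NRF1 itself had a higher mean. The median of the 4 targets was -0.76, with 3 lower. It was -1.24 without 902, and with depth class in the model it was 0.06, with 3 higher. All 4 had lower means in BPA muscle, among them SDHB (-0.17, adjusted p = 0.765) and ALAS1 (-0.12, adjusted p = 0.799). Of the PGC-1alpha targets, 4 of 9 were higher in liver and 4 in muscle at the threshold, which 71.4% of all genes passed. PCK1, a gluconeogenic enzyme, counted 22521 ± 4745 in liver and 125 ± 51.5 in muscle (n = 8, adjusted p = 2.55e-14), and PDK4, a brake on pyruvate oxidation, 3054 ± 1690 and 16744 ± 5080 (adjusted p = 2.3e-06). In BPA livers 6 of the 7 tested had higher means, with a median of 0.20 and no call. Without 902, 3 were higher and 4 lower, at a median of -0.03, and without 977 the median was 0.08. The smallest p was that of VEGFA, an angiogenic growth factor, at 6922 ± 3027 against 3106 ± 508 (1.04, SE 0.42, adjusted p = 0.265), followed by CPT1B, the muscle form of carnitine palmitoyltransferase (0.60, adjusted p = 0.496). In BPA muscle 4 were higher and 5 lower, with G6PC at -0.89 (adjusted p = 0.559) and VEGFA at 0.25 (adjusted p = 0.662).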

How the data were processed

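Liver and muscle RNA of 8 sheep was sequenced after ribosomal depletion with a SMARTer low input kit, per the labels' protocols. The deposited table holds a normalized signal, read counts that the authors divided by 1 factor per library. Trimmomatic, FastQC and DESeq2 1.24.0 are named in the submitters' processing notes. For the aligner, counter, annotation, build and strand setting, nothing is stated (not given in the sources used here). Whole reads were recovered from the values (tolerance 0.1 read; at least 99.98% of non-zero values whole in each library), and edgeR on these reads called 0 genes in liver, 19 in muscle and 11622 between tissues. All 16 columns were matched to samples by tissue and sheep number.

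Genes with a mean of at least 10 in the libraries of a comparison were tested with limma 3.58.1 (R 4.3.3, trend) on log2(value + 1), in tissue-specific fits for BPA and in a 4-group fit of 16 libraries for tissue and interaction, and p-values were adjusted over all genes tested. The code was tested on simulated data. Alternatives were a pseudocount of 5, a mean minimum of 1, TMM scaling, edgeR 4.0.16, DESeq2 1.42.0, 1 pooled fit, depth class, omitted libraries and the animal as a block. Liver and muscle of a number come from 1 animal, per the labels. Their deviations from group means correlated by -0.10 to 0.12 over 13677 genes, so the pairing rests on the labels.

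All members are named with every library value. For the other lists, genes past the threshold in a BPA comparison, or else the 2 with the smallest p, are named; genes named for tissue alone were picked after their values were seen. Members and lists were chosen with earlier results of these data known. Each animal is 1 replicate. All 3425 rows at 0 in every library stayed untested.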

Additional observations from a re-analysis of the deposited data

Results flagged for a closer look

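Of 40 groups of 4 libraries (10 members in 4 groups), 6 held a library whose gap to its nearest neighbour was, as a share of the group's range, above Dixon's 95% critical value for 4 samples. Chance flags about 1 in 20 groups when groups are independent. These 40 groups share the same 16 libraries, so that rate cannot be set against the 6 flagged. Control liver 902 was the low library for TFAM (192 normalized counts) and MFN2 (778) and the high one for OPA1 (401, above 3 controls at 359 to 360). BPA liver 918 was the high library for GABPA (670). In muscle, the high libraries were control 902 for OPA1 (845) and BPA 918 for DNM1L (343). Animals 902 and 918 account for all 6, in both tissues.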

How the results depend on the processing

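Of the livers, 4 had under 15 M reads and no muscle did; the largest counting error of a member value in liver was 13.4%, under the median spread of 38.4% between livers. Of the member values under the alternatives, 686 kept direction and call, 40 changed sign and 14 newly passed the threshold; the cause was not tested. Genes called in liver numbered 196 with DESeq2, 2299 in the pooled fit (1 member) and 6594 without livers 902 and 910 (4 members), and 0 to 2595 (0 to 1 member) with each library left out. In muscle, DESeq2 called 131 genes, the pooled fit 0, and omissions 11 to 31. For the interaction, DESeq2 called 148 genes and omissions gave 0 to 3550 (0 to 4 members). With the animal as a replicate block, 11091 genes and the same 4 members were called between tissues, and 0 in the interaction; the paired fit changed no member's call. Sign changes, all far from the threshold, were DNM1L in liver with TMM (-0.00925); TFAM (0.0879), GABPA (-0.0953) and MFN2 (0.152) in liver with depth class; MFN1 (0.000348) and DNM1L (0.00162) in muscle with edgeR; GABPA between tissues with edgeR (0.0628) and DESeq2 (0.00858); and MFN2 in the interaction with TMM (0.0158) and edgeR (0.0141). With each library left out, the ranges that crossed 0 were, in liver, -0.297 to 0.163 for DNM1L and -0.150 to 0.430 for GABPA. In muscle they were -0.0772 to 0.0420 for MFN1, -0.125 to 0.0755 for DNM1L, -0.0528 to 0.163 for PPARGC1B and -0.0309 to 0.122 for TFAM. In the interaction they were -0.240 to 0.104 for MFN2, -0.279 to 0.181 for DNM1L and -0.0697 to 0.510 for GABPA.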
